A study of Mus musculus with 2 samples.

Results

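The microRNAs miR-208a, miR-208b and miR-499 were examined in small RNA sequencing of E9.5 WT hearts, that is, whole hearts of wild type C57BL/6 mouse embryos at embryonic day 9.5. The data held 1 group with 2 replicates, each 1 small RNA library read as single reads of 50 nt and summarised by miRDeep2, a program that finds hairpin precursors from mapped reads and counts the reads on their arms. The labels did not say how many hearts went into a library or whether the replicates came from separate litters, so the spread between them may be technical. All precursor entries whose miRBase name was miR-208a, miR-208b or miR-499 were taken, whichever arm was named. This gave 3 of 568 entries in replicate 1, 2 of 523 in replicate 2, and 3 of 620 different precursors over both. No treatment, mutant or second stage was among these samples, so the comparisons made were between members, arms and replicates, and with other miRNAs of the same libraries.

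These miRNAs are among those called myomiRs, and each lies in an intron of a myosin heavy chain gene and is made from its primary transcript. The hosts are Myh6, which encodes alpha myosin heavy chain of fast-contracting cardiac muscle, Myh7, which encodes the slower beta chain that prevails in the embryonic mouse ventricle, and Myh7b, a relative found in heart and slow skeletal muscle. From the hairpin, Drosha and Dicer cut a duplex of a 5p and a 3p arm, and as a rule 1 arm is loaded into Argonaute and pairs with target mRNAs through its seed, while the other arm, called the star, is mostly lost. MiR-208 and miR-499 are known for a network in muscle in which they repress transcription factors and cofactors and thereby shift the balance of myosin isoforms.

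The 3 precursors lay in the sense direction of their host genes on mouse build mm9 (NCBIM37), with gene models from GENCODE vM1. The miR-208a precursor was at chr14:55567910-55567965 on the minus strand, in intron 29 of 38 of Myh6 (transcript Myh6-201). The miR-208b precursor was at chr14:55594548-55594603 on the minus strand, in intron 31 of 40 of Myh7 (Myh7-201), 26582 bases from that of miR-208a. The host genes Myh6 and Myh7 stood head to tail with 3760 bases between them. The miR-499 precursor was at chr2:155448629-155448686 on the plus strand, in intron 19 of 41 of Myh7b (Myh7b-001).

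The introns of the 3 hosts were of similar size. They measured 542 bases in Myh6, 461 in Myh7 and 481 in Myh7b, against median intron lengths of 294.5, 277 and 178 bases in the same transcripts. The precursors sat 209, 112 and 171 bases after the upstream exon and 277, 293 and 252 bases before the downstream exon, in the same order. In Myh6 and Myh7 exactly 9 introns followed the one with the miRNA, whereas 22 followed in Myh7b. None of the precursors overlapped an exon of these transcripts.

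**Figure D1:**
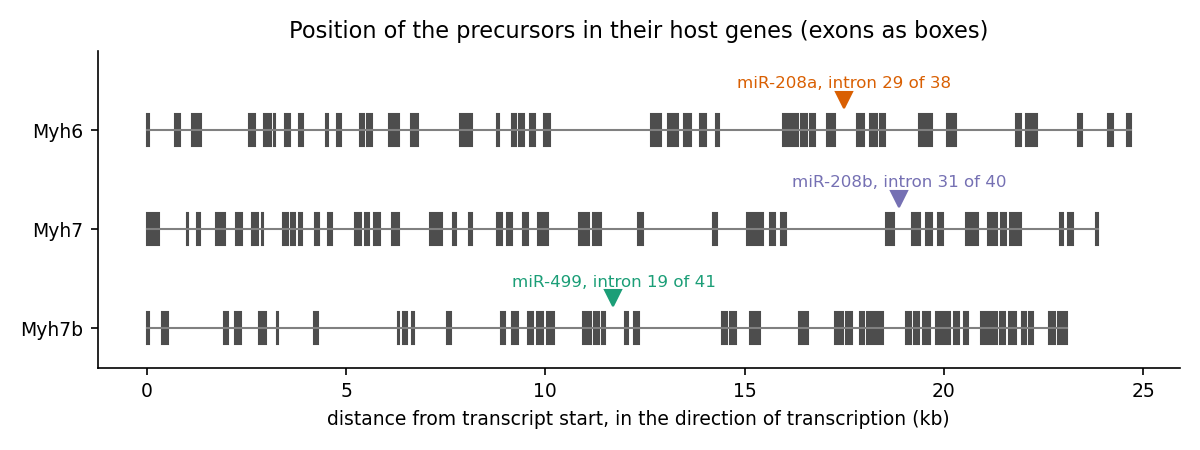
The 3 host transcripts are drawn to scale from their start in the direction of transcription (x axis, kb), with exons as boxes, introns as lines and a triangle over each precursor. The miRNAs of Myh6 and Myh7 sit late in the gene with 9 introns after them, and that of Myh7b sits near the middle.

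The deposited precursor sequences show which arm carried most reads. They run 5′ to 3′ from the first base of the 5p arm to the last base of the 3p arm, and capitals mark the arm with more reads, which was 3p in both miR-208 precursors and 5p in miR-499.
miR-208a precursor: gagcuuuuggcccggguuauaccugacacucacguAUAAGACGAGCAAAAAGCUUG
miR-208b precursor: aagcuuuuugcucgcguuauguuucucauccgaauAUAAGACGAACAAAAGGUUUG
miR-499 precursor: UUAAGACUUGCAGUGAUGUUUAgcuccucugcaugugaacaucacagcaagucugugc

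Each precursor was identical to the mm9 genome over its whole length. The table named both miR-208 entries after their 5p arm and marked them as having most reads on the opposite arm, so their main arm is called 3p here. The precursors of miR-208a and miR-208b were 56 bases each and identical at 69.6% of positions. RNAfold gave minimum free energies of -20.6 kcal/mol for miR-208a, -17.2 for miR-208b and -26.6 for miR-499. Per base, the miR-499 hairpin was more stable than 77.6% of the 620 listed precursors, that of miR-208a more stable than 38.1% and that of miR-208b more stable than 16.5%.

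The main arms are shown because the 3 miRNAs share most of their seed. Capitals mark the seed, bases 2 to 8 from the 5′ end, in the main arm of each.
miR-208a-3p: aUAAGACGagcaaaaagcuug
miR-208b-3p: aUAAGACGaacaaaagguuug
miR-499-5p: uUAAGACUugcagugauguuua

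MiR-208a-3p and miR-208b-3p had the same seed and were identical over their first 9 bases. Over 21 bases they differed at 3 positions, written with the miR-208a base first and counted from the 5′ end as G10A, A16G and C18U. A read over all 21 bases of either 3p arm thus covered all 3 differences. MiR-499-5p shared bases 2 to 7 with both, and the last seed base differed (G8U against either). Beyond that run miR-499-5p was a different sequence, with 57.1% of 21 positions identical to miR-208a-3p and 47.6% identical to miR-208b-3p. No other listed precursor carried, on either arm, the seed of these main arms, that seed shifted by 1 base, or its first 6 bases.

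On the star arms only miR-208a and miR-208b shared a seed, and miR-499-3p had neither that seed nor its first 6 bases. Capitals again mark bases 2 to 8.
miR-208a-5p: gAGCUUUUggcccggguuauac
miR-208b-5p: aAGCUUUUugcucgcguuaug
miR-499-3p: aACAUCACagcaagucugugc

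The 5p arms of miR-208a and miR-208b also shared bases 2 to 8 and differed at 5 of 21 positions (G1A, G9U, C12U, G15C and A21G). One further entry, miR-3095-3p, shared the first 6 of those 7 bases on one of its arms. All 6 arms had a RefSeq mature sequence (mouse assembly GRCm38.p6). Against these, all 3 main arms began at the same base. The deposited miR-208a-3p and miR-208b-3p were 1 base shorter at the 3′ end than RefSeq, and miR-499-5p was 1 base longer. The star arm of miR-499 began 1 base later than the RefSeq miR-499-3p, which moves its seed by 1 base, and this arm was represented by 16 and 10 reads.

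The libraries held 5067168 reads on listed precursors in replicate 1 and 4939193 in replicate 2, of which 4942257 and 4806179 lay on the mature arm. Shares below are percentages of all mature reads in a library, which count a sequence again for each precursor it maps to, and intervals are Wilson intervals at 95% that cover read-counting error only. The libraries bore markers of cardiac and skeletal muscle, with miR-1a and miR-133a entries together at 22.4% and 23.3%. This sum takes in 2 entries each of miR-1a and miR-133a that hold nearly the same reads. The values of miR-143, miR-145a and miR-126a hold no such repeats. MiR-143 and miR-145a of smooth muscle summed to 7.94% and 6.82%, and miR-126a of endothelium to 2.90% and 2.87%. The listed markers of liver (miR-122), nerve (miR-124, miR-9), white blood cells (miR-142a) and red cells (miR-144, miR-451a) stood at 0.0554% or less each, with miR-223 not listed. The highest of these, miR-122 of liver, had 0.0421% and 0.0554%, above miR-208b-3p and miR-208a-3p. In whole hearts, fewer cells of a type and less RNA per cell cannot be told apart.

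MiR-499-5p, from the Myh7b intron, was the most abundant of the 3. It had 8262 mature reads in replicate 1 and 7061 in replicate 2. These were 0.167% (0.164 to 0.171) and 0.147% (0.144 to 0.150) of mature reads, with a mean of 0.157% ± 0.0143 (SD, n = 2). It stood at place 69 of 568 entries and place 74 of 523, and at place 72 of the 471 entries listed in both by mean share. Thus it lay above 87.9% and 85.9% of the entries of each library.

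MiR-208b-3p, from the Myh7 intron, came second. It had 1877 and 1581 mature reads, or 0.0380% (0.0363 to 0.0397) and 0.0329% (0.0313 to 0.0346), with a mean of 0.0354% ± 0.00359 (SD, n = 2). This put it at places 157 and 170, and at place 163 of 471 by mean share. Its intervals were well below those of miR-499-5p in both replicates.

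MiR-208a-3p, from the Myh6 intron, was the least abundant and was listed in replicate 1 only. It had 860 mature reads there, a share of 0.0174% (0.0163 to 0.0186), at place 200 of 568. No entry of replicate 2 overlapped its precursor and none had its 3p sequence on either arm. At the share of replicate 1, 836 reads would fall on it in replicate 2. Of the 200 entries with at least 860 mature reads in replicate 1, only 3 (1.5%) were not listed in replicate 2, against 17.1% of all entries of replicate 1. Of the 97 entries listed in replicate 1 only, whose median was 5 reads, just miR-300-3p with 19069 and miR-467b-5p with 1140 had more reads than miR-208a. The files do not show why miR-208a was not listed in replicate 2, so it was given no value there, not 0, and it has no replicate check.

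**Figure D2:**
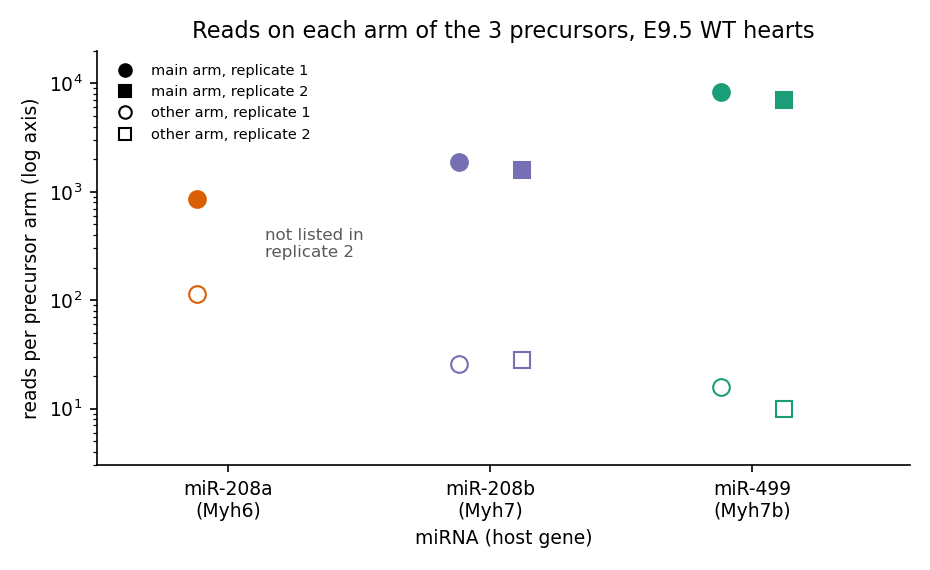
Reads (y axis, log scale) on the main arm (filled) and star arm (open) of each precursor, with replicate 1 as circles and replicate 2 as squares. Main-arm reads run from 860 for miR-208a to 8262 for miR-499, whereas star reads run the other way, from 113 for miR-208a to 10 for miR-499.

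Only 1 ratio between members was given by both replicates, and its 2 values were close. MiR-499-5p exceeded miR-208b-3p 4.40-fold (95% interval 4.19 to 4.63) in replicate 1 and 4.47-fold (4.23 to 4.72) in replicate 2, with a mean of 4.43 ± 0.0456 (SD, n = 2). In replicate 1, miR-208b-3p exceeded miR-208a-3p 2.18-fold (2.01 to 2.37) and miR-499-5p exceeded it 9.61-fold (8.96 to 10.3). The order was therefore miR-499, miR-208b and miR-208a, with steps larger than counting error, although the last step rests on 1 library. MiR-499-5p made up 75.1% of the members' mature reads in replicate 1 and 81.7% in replicate 2, where miR-208a was not listed. Together the members took 0.223% and 0.180% of mature reads.

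The other muscle miRNAs put these levels in scale. MiR-1a-3p, the main miRNA of heart muscle, had 492873 and 503921 reads on its higher entry and exceeded miR-499-5p 59.7-fold and 71.4-fold. The same miR-1a entry exceeded miR-208b-3p 263-fold and 319-fold, and miR-208a-3p 573-fold in replicate 1. Summing both miR-1a entries, which share 1 mature sequence and hold nearly the same reads, raised the mean ratios to 131 for miR-499 and 581 for miR-208b, and the ratio in replicate 1 to 1146 for miR-208a. MiR-133a-3p, which is transcribed with miR-1a, exceeded miR-499-5p 7.35-fold and 8.08-fold.

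The other muscle miRNAs fell on both sides of the members. MiR-133b-3p, which is linked to skeletal muscle, had 6734 and 6504 mature reads, between miR-499-5p and miR-208b-3p, and 0 star reads in either replicate. Whether reads of the more abundant miR-133a-3p were counted on it was not tested. MiR-206-3p, made from the same transcript as miR-133b and typical of skeletal muscle, had 192 and 187 reads, less than any member. MiR-486a-5p, hosted by the Ank1 gene, had 5456 and 6534 reads on its higher entry, or 0.110% and 0.136%. It is also counted among blood-cell miRNAs but was not among the red cell markers named earlier. Those summed to only 0.00259% and 0.00416%, so the low red cell value does not cover miR-486a-5p. MiR-1b was listed in replicate 1 only, with 3 reads on each of its 2 entries, which lie antisense to those of miR-1a.

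The entries next to miR-499-5p and miR-208b-3p in abundance did not keep the same order in both replicates. Around miR-499-5p stood miR-298-5p (7893 and 7606 reads) and miR-323-3p (7056 and 8341) above, and miR-328-3p (6419 and 8476) and miR-191-5p (6403 and 7966) below. MiR-499-5p was higher than each of these 4 in replicate 1 and lower in replicate 2. Around miR-208b-3p stood miR-666-5p (1724 and 1808) and miR-363-3p (1791 and 1677) above and 2 overlapping miR-450b-5p entries (1775 and 1593 each) below, and the order again changed between the replicates. For miR-208a-3p, the neighbours in replicate 1 were 2 miR-485-5p entries (874 reads each), miR-362-5p (765) and miR-146b-5p (756). Their intervals overlapped its own, which does not show that the levels were equal, and no test between entries was run.

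**Figure D3:**
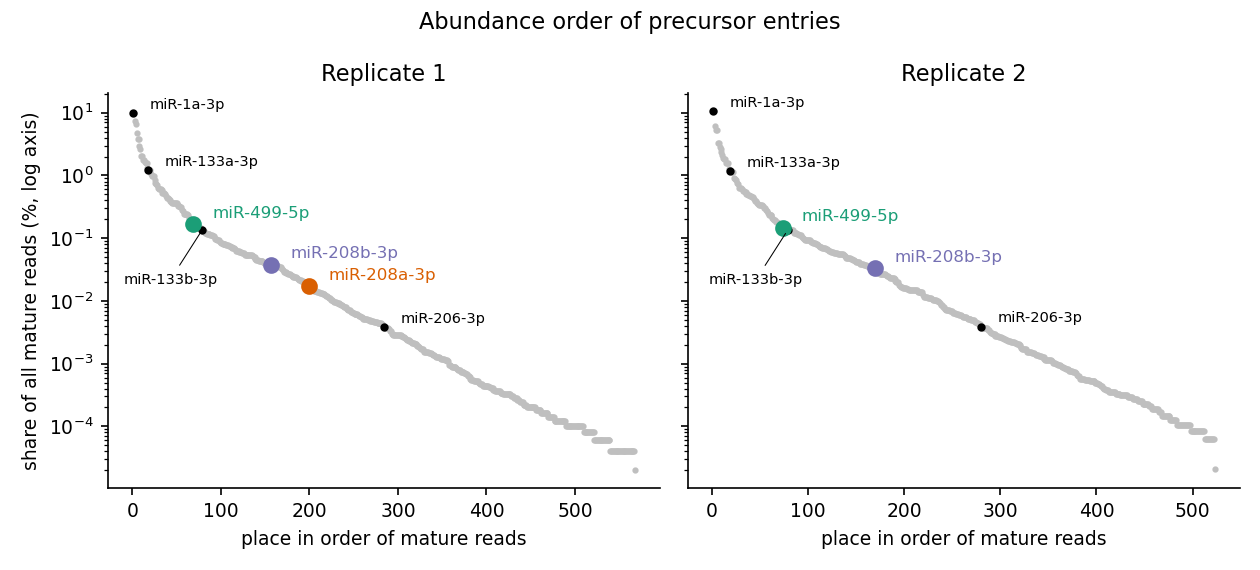
Each point is a precursor entry, placed by its order of mature reads (x axis) and its share of all mature reads (y axis, %, log scale), for replicate 1 and replicate 2. MiR-499-5p sits at places 69 and 74, close to miR-133b-3p, and miR-208b-3p at places 157 and 170, while miR-208a-3p appears only in replicate 1 at place 200.

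The precursors differed in how much of the star arm was found. The star share is the number of star reads over mature and star reads of an entry. For miR-208a it was 11.6% in replicate 1 (113 of 973 reads, 9.75 to 13.8). For miR-208b it was 1.37% (26 of 1903 reads, 0.934 to 1.99) in replicate 1 and 1.74% (28 of 1609, 1.21 to 2.50) in replicate 2. For miR-499 it was 0.193% (16 of 8278 reads, 0.119 to 0.314) and 0.141% (10 of 7071, 0.0768 to 0.260). The intervals of the 3 precursors did not overlap within replicate 1, nor did those of miR-208b and miR-499 within replicate 2.

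The star reads thus ran in the opposite order to the main arms. MiR-208a-5p had 4.35 times (2.85 to 6.64) the reads of miR-208b-5p in replicate 1, although the main arm of miR-208a had fewer reads than that of miR-208b. Over entries with at least 20 mature and star reads, the median star share was 0.952% in replicate 1 (413 entries) and 0.912% in replicate 2 (417 entries). The star share of miR-208a was above that of 78.2% of these entries. That of miR-208b was above 53.5% and 56.8% of them, and that of miR-499 above 38.7% and 39.6%. These entries include overlapping ones of the same miRNA, some without star reads. For miR-345-3p the star share in replicate 1 was 16.7% on 1 entry and 0% on the other. The medians and the places of the members depend on such entries, and no values without them were computed. None of the 3 precursors had a read on the hairpin loop in a replicate that listed it. The miRDeep2 score, which weighs reads and hairpin structure, was 4200 and 3600 for miR-499, 970 and 820 for miR-208b and 490 for miR-208a.

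**Figure D4:**
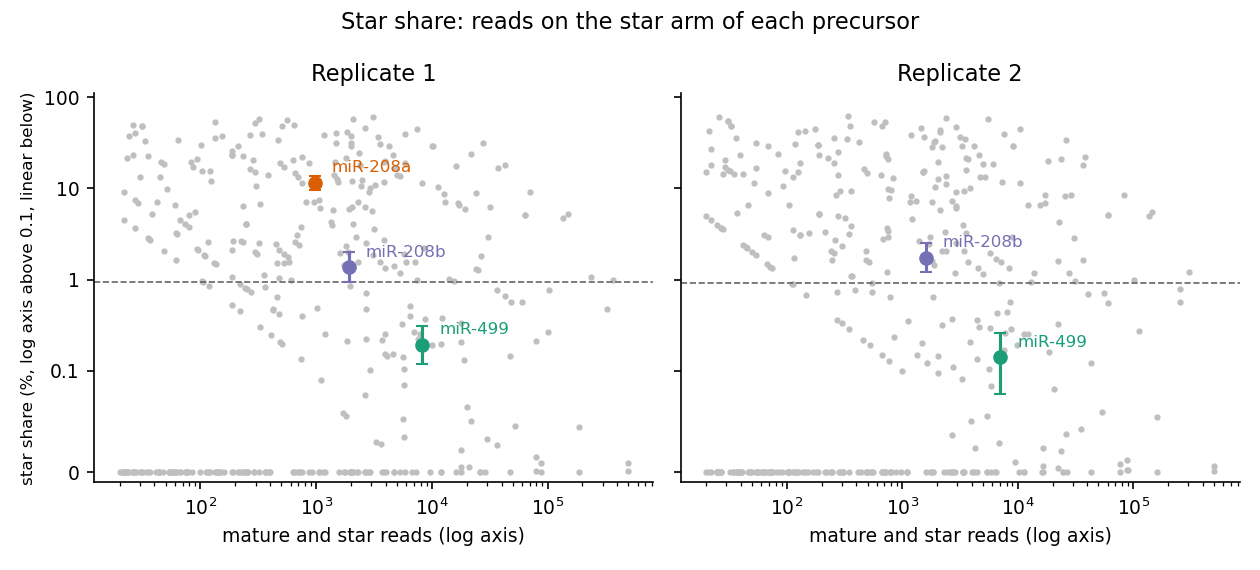
Star share (y axis, %, log scale above 0.1 and linear below) against mature and star reads (x axis, log scale) for entries with at least 20 such reads, with the members coloured, their 95% Wilson intervals as bars and the median of all entries as a dashed line. MiR-208a at 11.6% lies above the median of 0.952%, miR-208b near it, and miR-499 below it.

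The 2 replicates differed by more than read-counting error for many precursor entries. Entries present in the tables of both replicates were tested where their mature reads summed to 20 or more. Of these 431 entries, 177 (41.1%) had different shares by a two-sided exact binomial test with Benjamini-Hochberg adjustment (adjusted p under 0.05), and 58 (13.5%) were lower in replicate 2. With TMM or DESeq2 sizes 92 of 178 and 98 of 176 calls were lower in replicate 2, so the balance of directions depends on the scaling. The test compares 2 libraries, not conditions.

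Both members that could be tested were lower in replicate 2. The log2 ratio of shares, replicate 2 over replicate 1, was -0.19 for miR-499-5p (exact binomial test, adjusted p = 9.52e-15) and -0.21 for miR-208b-3p (exact binomial test, adjusted p = 9.98e-05). Each was thus lower by a near equal factor, 1.14-fold and 1.15-fold, and their ratio to each other moved little. Their direction held with TMM sizes, with DESeq2 size factors and with all reads on the precursor. The other alternatives changed only the filter on low counts, which cannot alter a member's own ratio. In size, these ratios lay near the middle of all entries. The median absolute log2 ratio over the 431 entries was 0.19, and 49.0% of entries moved less than miR-499-5p and 55.2% less than miR-208b-3p. Many of these entries had far fewer reads than the members, and ratios from few reads vary more by counting. No comparison at like depth was made.

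The star share differed between replicates for 32 of 427 entries (7.49%) by two-sided Fisher's exact test with the same adjustment. Neither member was among them. The exact p was 0.556 for miR-499 and 0.410 for miR-208b, both with an adjusted p of 1. No difference was detected with 16 and 10 star reads of miR-499 and 26 and 28 of miR-208b.

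**Figure D5:**
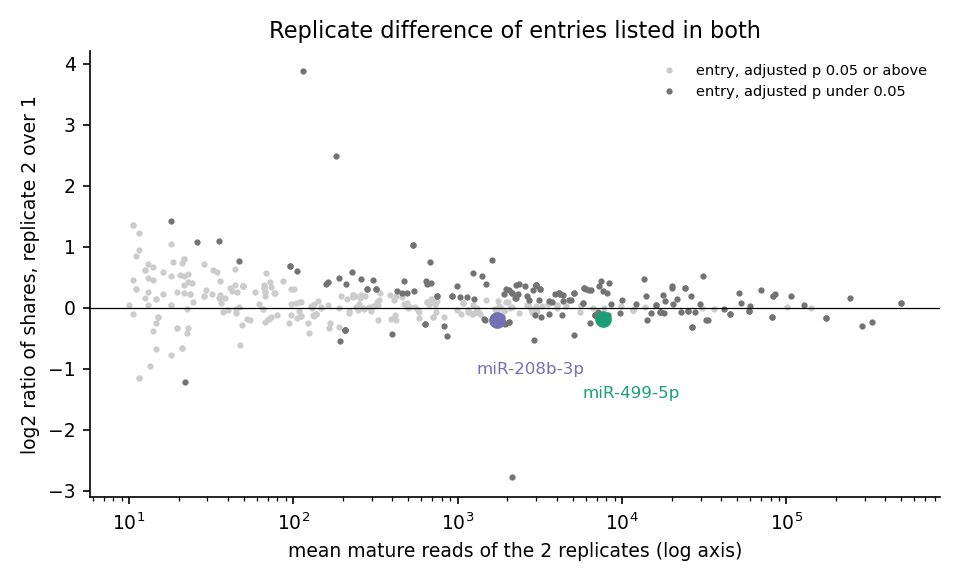
Log2 ratio of shares between replicate 2 and replicate 1 (y axis) against mean mature reads (x axis, log scale) for the 431 entries tested, with entries of adjusted p under 0.05 in dark grey. MiR-208b-3p at -0.21 and miR-499-5p at -0.19 lie just below 0 among the other entries.

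The seeds were then searched in 6 mRNAs that are known from earlier work as targets of miR-208 or miR-499, since the members differ in the last seed base. A match was the complement of bases 2 to 8 (CGTCTTA for miR-208, AGTCTTA for miR-499) or the complement of bases 2 to 7 followed by A (GTCTTAA, which serves both), on the sense strand of the longest annotated 3′ UTR of the gene. Among 19915 genes with an annotated 3′ UTR, 9.33% had a match for miR-208 and 13.1% for miR-499, and this share rose with length. The count is a description of sequence and measures no repression. Because the genes were chosen as known targets, it is also no test of enrichment over other genes.

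Matches were present in 5 of 6 genes for miR-208 and in 4 of 6 for miR-499. Med13, a subunit of the Mediator kinase module, had 1 match within its 3953 bases, full (8 bases) for miR-208 and partial for miR-499 at the same place. Of 3′ UTRs within 10% of that length, 27.8% had a match for miR-208 and 37.8% for miR-499. Sox6, a transcription factor that represses slow muscle genes, had 2 matches for miR-208 and 4 for miR-499, of which 1 was common to both. Its 3′ UTR of 5574 bases is long, and 37.5% and 49.2% of 3′ UTRs of like length had at least 1. Mstn, which encodes the growth inhibitor myostatin, had 1 match for miR-208 and 2 for miR-499, where 11.6% and 16.1% of 3′ UTRs of like length had one. Ppp3ca, the catalytic subunit of calcineurin, had 1 site, full for miR-499 and partial for miR-208, against 25.4% and 17.9% of 3′ UTRs of like length. With the shortest annotated 3′ UTR of each gene, Sox6 kept 1 match for each seed and Ppp3ca none.

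The remaining genes separated the seeds or held none. Sp3, a zinc finger transcription factor, had 1 match for miR-208 and none for miR-499, and 12.5% and 18.1% of 3′ UTRs of like length had one. Purb, a repressor of muscle gene promoters, had none in its annotated 3′ UTR of 891 bases. The sites below show the single base by which the seeds part, with the matched bases in capitals and the mRNA written 5′ to 3′.
Med13, bases 547 to 554 of the 3′ UTR, full match to miR-208: tatgtaatCGTCTTAAt
Ppp3ca, bases 549 to 556, full match to miR-499: aattaggcAGTCTTAAa
Sox6, bases 121 to 127, match to both: agcagaatgGTCTTAAt
Sox6, bases 276 to 282, match to miR-208: cccatcgcCGTCTTAtg
Sox6, bases 285 to 291, match to miR-499: gtcttatgAGTCTTAca
Sp3, bases 823 to 829, match to miR-208: gtgtattgCGTCTTAgc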

How the data were processed

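Total RNA of whole E9.5 WT hearts was made into TruSeq small RNA libraries (2 replicates of 1 group) and, per the labels, clean reads were mapped by the authors with miRDeep2 to mouse build mm9. The deposited tables hold raw read counts per precursor (mature, loop, star and total) and the miRDeep2 score of each entry, without normalization. The miRDeep2 version and mapping settings were not given in the sources used here. Members and gene lists were chosen with earlier results of these data known.

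Entries of the replicates were paired where they overlapped by 50% of both on the same strand. Named entries were the members, the 2 entries above and below each in mean share, entries with a member's seed, and the muscle miRNAs miR-1a, miR-1b, miR-133a, miR-133b, miR-206 and miR-486; miR-300-3p and miR-467b-5p were named after their values were seen. Shares, exact binomial and Fisher's exact tests (threshold 0.05 after Benjamini-Hochberg adjustment) used scipy 1.17.1. The tests, not the shares, were run on simulated counts with counting error only. Simulated star shares were kept above those of miR-208b and miR-499. That simulation thus covers neither the spread between the replicates nor the star shares of these members. TMM (edgeR 4.0.16), DESeq2 1.42.0 size factors and other filters served as alternatives. Hairpins were folded with RNAfold 2.7.2. All 620 precursors matched mm9 exactly. Reads carried no molecular identifiers, so intervals cover counting error only.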

Additional observations from a re-analysis of the deposited data

How the results depend on the processing

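Of 59 alternative values of the main results, 44 stayed within the replicate spread, the interval, the same side of the threshold or, for counts, a set fold range. Several of these could not move. Leaving out either replicate always stays within their SD, and read filters leave a member's own ratio and star share unchanged. The members had no loop reads, so including the loop changed no star share. The number that stayed therefore does not measure how robust the results are. Counting each mature sequence once moved the shares to 0.0238% for miR-208a-3p, 0.0485% for miR-208b-3p and 0.215% for miR-499-5p, since the denominator fell. Counting all reads on the precursors moved the share of miR-208a to 0.0192% and the ratios to 4.37 for miR-499 over miR-208b, 1.96 for miR-208b over miR-208a and 8.51 for miR-499 over miR-208a. The sum of both miR-1a entries moved its ratios to 1146, 581 and 131 for miR-208a, miR-208b and miR-499. Entries lower in replicate 2 became 92 with TMM sizes and 98 with DESeq2 size factors, against 58. The miR-208b-3p and miR-499-5p log2 ratios ranged from -0.28 to -0.21 and from -0.25 to -0.19 over the settings. Matches to bases 2 to 7 alone numbered 15 for either seed in the 6 genes, against 6 for miR-208 and 8 for miR-499, and the shortest 3′ UTR of each gene left 4 for either seed.

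Without replicate 1 or replicate 2, the share of miR-499-5p was 0.147% to 0.167% and that of miR-208b-3p 0.0329% to 0.0380%. No value of miR-208a remained without replicate 1. No paired analysis was possible because the samples form 1 group. Depth limits the star arms most, with 10 to 113 reads on each.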
